A study of Mus musculus with 8 samples.

Results

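The replication-dependent histone genes were followed through RNA sequencing of mouse intestinal epithelial cells (IECs) with and without the RNA helicase DDX5. Members were all protein-coding genes named as histone genes of the Hist1, Hist2, Hist3 or Hist4 clusters in the deposited count tables. There were 64 of them among 40178 genes in either table, of which 20229 were protein coding, and both tables listed the same 64. They encode linker histone H1 (6 genes) and the core histones H2A (16), H2B (18), H3 (11) and H4 (13).

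IECs were released with EDTA from the ileum and the colon of 8-week-old mice, and total RNA was ribosome-depleted before sequencing. WT IEC mice were Ddx5 +/+ and carried Vil1-Cre. DDX5ΔIEC mice were Ddx5 fl/fl and carried the same Vil1-Cre, so that both genotypes expressed Cre from the villin promoter, which drives recombination in the intestinal epithelium. Each of the 4 groups had 2 libraries, and the colon and ileum libraries with the same genotype and number came from 1 mouse, giving 4 mice in all.

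Replication-dependent histone genes are transcribed in S phase, when new DNA must be packed into chromatin, and their protein products form the nucleosome core or, for H1, bind the linker between nucleosomes. Their mRNAs are the known exception among metazoan mRNAs in that most end in a conserved stem-loop instead of a poly(A) tail. The stem-loop is bound by the stem-loop binding protein SLBP, which is needed for processing, export and translation, and the mRNAs are degraded when replication ends. In the intestine the dividing cells sit in the crypts, and some histone genes are also known to give polyadenylated mRNAs in cells that have left the cycle. Poly(A) selection would discard the tail-less RNAs, whereas ribosome depletion keeps them.

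The stem-loop was read from the transcripts of each member (GENCODE vM21, GRCm38). The letters GGNNCTNNTNAGNNCC were searched on the sense strand after the stop codon. They were found in 44 of the 64 members, whereas 2.2% of 21901 protein-coding genes held them anywhere in a transcript. In each of the 44, both arms of the stem paired over all 6 bases. The forms of 4 members whose counts are described below are shown with the 16-base element in capitals and 5 flanking bases on each side.
Hist1h3b: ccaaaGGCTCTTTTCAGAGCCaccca
Hist1h2bb: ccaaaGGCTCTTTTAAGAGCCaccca
Hist1h4h: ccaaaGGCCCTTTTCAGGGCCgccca
Hist1h4i: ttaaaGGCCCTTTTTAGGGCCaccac
The first form was the most frequent among H1, H2A, H2B and H3 genes. Hist1h2bb carried an A in the loop, a form shared with 1 further H2B gene, 3 H3 genes and 1 H1 gene. The 12 H4 genes with an element had a stem of other letters, and 7 of them shared the form of Hist1h4h. Hist1h4i and Hist2h4 shared a loop of 4 T that no other H4 gene had. Of the 44 members, 22 ended within 100 bases of the element and 22 had annotated sequence running 100 bases or more past it. Of the other 20, 16 ended less than 100 bases after the stop codon, so the annotation is too short to hold the element. The remaining 4, Hist1h2bc, Hist1h2bq, Hist1h2br and Hist2h2be, had long 3′ ends without these letters.

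The genes lie in 4 clusters. Hist1 on chromosome 13 held 53 members in 2 blocks, chr13:21715763-22043676 with 23 members and chr13:23531050-23934156 with 30. Hist2 on chromosome 3 held 8 members, Hist3 on chromosome 11 held 2 and Hist4 on chromosome 6 held 1. Within 1000 bases of each other, 12 pairs were transcribed head to head, and 11 of these paired an H2A with an H2B gene. The genes are near copies of one another. A median of 51.9% of the 50-base words in a member's transcripts also occurred in another gene, 32 members shared over 50%, and 13 shared at most 20%. Reads that map to several copies were not counted by the authors, so levels of the most similar copies are uncertain, and the least shared members are given beside the rest. Annotated members also overlap each other, such as Hist1h2be with Hist1h1e, and reads there may be lost or assigned to either gene.

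The windows 5′ of the genes were searched on both strands for the histone octamer ATTTGCAT, the CCAAT box and the TATA box (TATAAA) in 300-base RefSeq promoters (GRCm38.p6), which were matched for 59 members. The octamer was present in 6 of 16 H2A and 6 of 16 H2B promoters and in none of the H1, H3 and H4 promoters, against 1.75% of all 27025 promoters. All H1, H2A, H2B and H3 promoters held CCAAT, against 3 of 12 H4 promoters and 37.9% of all promoters. TATAAA was found in 55.9% of member promoters and 14.2% of all. The 250 bases before the start are shown for 3 genes that moved differently in the counts, with these letters in capitals on either strand.
Hist1h2bb, chr13:23746484-23746733, plus strand: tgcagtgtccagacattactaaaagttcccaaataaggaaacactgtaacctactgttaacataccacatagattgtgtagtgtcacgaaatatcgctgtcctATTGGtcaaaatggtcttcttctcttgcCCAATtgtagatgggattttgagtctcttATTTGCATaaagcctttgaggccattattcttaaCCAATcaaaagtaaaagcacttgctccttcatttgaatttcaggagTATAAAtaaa
Hist1h1c, chr13:23738557-23738806, plus strand: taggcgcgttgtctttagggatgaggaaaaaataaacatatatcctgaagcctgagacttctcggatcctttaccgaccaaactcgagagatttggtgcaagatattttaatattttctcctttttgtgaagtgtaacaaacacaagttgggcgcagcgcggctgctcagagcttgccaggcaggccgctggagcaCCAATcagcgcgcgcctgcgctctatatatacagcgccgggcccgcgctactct
Hist1h4i, chr13:22041363-22041612, minus strand: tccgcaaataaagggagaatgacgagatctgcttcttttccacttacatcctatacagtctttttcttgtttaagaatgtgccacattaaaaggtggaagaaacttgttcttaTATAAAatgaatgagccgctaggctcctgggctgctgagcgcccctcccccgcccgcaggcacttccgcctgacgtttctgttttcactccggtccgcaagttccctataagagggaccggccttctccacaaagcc
The window of Hist1h2bb held the octamer, CCAAT on both strands and TATAAA. That of Hist1h1c held CCAAT alone, and that of Hist1h4i held TATAAA alone. A match describes letters and not a used site.

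Libraries held 11571061 to 22984283 counts, and 29489 to 81313 of these fell on the members. Ddx5, the deleted gene, stood at 771 and 706 CPM (normalised read counts, scaled by the library's total and its TMM factor over all 8 libraries) in WT colon and at 367 and 355 in DDX5ΔIEC colon. It stood at 700 in both WT ileum libraries and at 340 and 326 in DDX5ΔIEC ileum, so every library matched its label, with RNA remaining in the knockouts. The 6 epithelial markers summed to between 10030 and 16810 CPM. In DDX5ΔIEC ileum replicate 2, 19.5% of counts came from 3 repeat-like predicted genes, against 0.226% to 4.04% in the other ileum libraries and at most 0.261% in the colon. The 8 leukocyte markers summed to 108.2 and 108.9 CPM in WT colon, 13.41 and 29.44 in DDX5ΔIEC colon, and 268.3 to 1002 in the ileum. Cd74 was the most abundant in every library, and Cd79a stood at 0 to 0.321 CPM. Of the 6 leukocyte markers tested in the colon, 5 had a log2 ratio of DDX5ΔIEC over WT below 0 and 1 was above, at 1.6. The lower leukocyte sum of the DDX5ΔIEC colon moved with the colon comparison below, and its part there was not tested. In bulk RNA, fewer cycling cells and less histone RNA per cycling cell cannot be told apart.

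Together the members took 0.255% to 0.389% of all counts. Their summed level was 3146 and 3489 CPM in WT colon and 2628 and 3129 in DDX5ΔIEC colon. In the ileum it was 3752 and 3461 in WT and 3995 and 3157 in DDX5ΔIEC. On this scale the colon library labelled DDX5ΔIEC replicate 1 was the lowest of the 8 and its ileum counterpart from the same mouse was the highest, whereas as a share of all counts DDX5ΔIEC ileum replicate 2 was lowest (0.255%) and WT colon replicate 2 highest (0.389%). Both DDX5ΔIEC colon libraries lay below both WT colon libraries, with ratios of 0.835 for the libraries numbered 1 and 0.897 for those numbered 2. The nearest of them, at 3129 and 3146 CPM, were almost level, and as a share of all counts DDX5ΔIEC colon replicate 2 (0.353%) lay above WT colon replicate 1 (0.345%), so the separation rests on the TMM scaling. The study describes 2 pairs of cohoused WT and DDX5ΔIEC littermates, but nothing except the number links a given WT library to a given DDX5ΔIEC library. In the ileum the genotypes overlapped, with ratios of 1.06 and 0.912. With 2 libraries a group, an exact two-sided permutation test cannot go below p = 0.333, and these sums have no test.

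**Figure D1:**
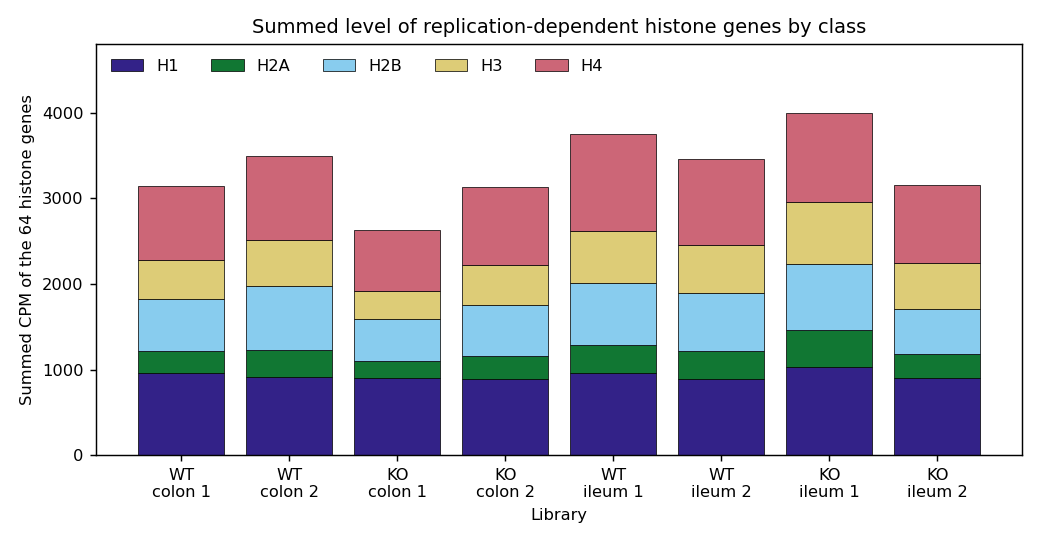
Summed CPM of the 64 histone genes in each of the 8 libraries, with each bar divided into the 5 histone classes. The bars of the DDX5ΔIEC colon libraries reach 2628 and 3129, below the WT colon libraries at 3146 and 3489, and the ileum libraries reach 3157 to 3995.

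H1 genes gave 25.7% to 34.3% of the histone counts, H4 genes 25.9% to 30.3%, H2B 16.8% to 21.4%, H3 12.6% to 18.3% and H2A 7.54% to 10.9%. Per kilobase of annotated exon, which is the scale on which genes can be compared, Hist1h4h was highest at a mean of 350 CPM per kilobase over the 8 libraries. The H4 genes Hist1h4f and Hist1h4k followed at 227 and 214. In H1, Hist1h1c stood at 193, Hist1h1b at 147 and Hist1h1a at 125. In H2B, Hist1h2bn stood at 176, Hist1h2bb at 166 and Hist2h2bb at 119. In H3, Hist1h3e stood at 128, Hist1h3c at 116 and Hist1h3a at 97.8, and in H2A, Hist1h2ak at 140, Hist1h2ab at 105 and Hist2h2ac at 79.2. These values depend on the annotated length, which holds little beyond the coding sequence for some members such as Hist1h4k (312 bases) and over 1000 bases for others such as Hist1h1c (1560 bases). At the other end, Hist1h2ba, an H2B gene known from the testis, had 0 or 1 counts in every library but WT ileum replicate 2, which had 2. Hist1h1t, the testis H1, had 2 to 7 counts and Hist1h2br 3 to 7. These 3 genes were too low to test, Hist1h2ao was too low to test within a tissue, and Hist1h2ap and Hist1h2bq were too low in the ileum.

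The colon comparison asked whether histone RNA differs when the epithelium lacks DDX5. Most members were lower in DDX5ΔIEC colon by a modest amount, but no single member passed correction for all genes. Of the 60 members tested, 54 had a log2 ratio below 0, and the median was -0.30 against -0.00042 over the 15362 genes tested. The core histone genes of H2B were lowest as a class, with a median of -0.41, followed by H3 at -0.31 and H2A at -0.28. H4 and H1 stood at -0.15 each. All 11 H3 genes and 15 of 16 H2B genes were below 0.

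With edgeR's quasi-likelihood test, 0 of 60 members had a Benjamini-Hochberg adjusted p under 0.05, and the share over all genes was 0%, Ddx5 included (log2 ratio -1.04, adjusted p = 0.0866). DESeq2 with and without the replicate number as a block called 0 members as well, while it called 116 and 188 genes over all. At an unadjusted p under 0.05, 31 members were lower and 1 was higher, against 6.17% and 5.78% of all genes tested. Without the block these were 11 and 1 (5.88% and 5.75% of all genes), and in DESeq2 with the block 11 and 0 (2.67% and 2.25%). Both DDX5ΔIEC libraries lay below both WT libraries for 25 members (41.7%), against 22% of all genes, and above them for 2 (3.33%), against 22.5%. When libraries of the same number were set against each other, in both pairs 47 members (78.3%) were lower, against 30.4% of all genes, and 3 (5%) were higher, against 30.7%.

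Under the criterion of the study's methods, a log2 ratio of at least 0.5 either way with an unadjusted p under 0.05, 5 members were lower and 1 was higher. Over protein-coding genes the shares were 4.01% lower and 2.64% higher, and over the 60 members 8.33% and 1.67%. Hist1h3b, an H3 gene at chr13:23752267-23752886, stood at 49.7 and 62.4 CPM in WT colon and at 30.6 and 44.2 in DDX5ΔIEC colon. Both knockout libraries were below both WT libraries. Of the 50-base words of Hist1h3b, 60.4% also occur in another gene, so its level is uncertain. Its log2 ratio was -0.61 ± 0.10 (SE, n = 2 per group) with an adjusted p of 0.246 in edgeR. Hist1h2bb, an H2B gene at chr13:23746734-23747241, stood at 84 and 111 CPM in WT and at 58.3 and 77.3 in DDX5ΔIEC, and these groups did not overlap either. Its log2 ratio was -0.53 ± 0.09 with an adjusted p of 0.238 in edgeR. Hist1h3b and Hist1h2bb were the 2 members that DESeq2 with the block also placed past the criterion.

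The other lower members had fewer counts. Hist1h2af, an H2A gene, stood at 16 and 18.5 CPM in WT and 10 and 14.4 in DDX5ΔIEC, with a log2 ratio of -0.53 ± 0.14. Hist1h2bf, an H2B gene, stood at 13.9 and 18.6 in WT and 9.55 and 13.6 in DDX5ΔIEC, with a log2 ratio of -0.51 ± 0.13. Neither gene's groups overlapped, but 94% and 65.8% of their 50-base words also occur in another gene, so these levels are uncertain. Hist1h2bq had 11 and 20 counts in WT and 3 and 8 in DDX5ΔIEC, and 97.3% of its 50-base words also occur in another gene, so its log2 ratio of -1.45 ± 0.48 is uncertain. Hist1h1b, an H1 gene of dividing cells that shares no such word with another gene, was just short of the criterion. It stood at 95.2 and 108 CPM in WT and 63.7 and 85.9 in DDX5ΔIEC, with a log2 ratio of -0.47 ± 0.10. Hist1h3c was also just short, with a log2 ratio of -0.49 ± 0.10.

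The genes with the highest level per kilobase were mostly on the lower side as well. Hist1h2bn and Hist2h2bb, both H2B genes, had log2 ratios of -0.45 ± 0.09 and -0.44 ± 0.09, and the H2A genes Hist1h2ab, Hist2h2ac and Hist1h2ak -0.43, -0.37 and -0.27. The H3 genes Hist1h3e and Hist1h3a had -0.30 and -0.24. Hist1h4h, Hist1h4f and Hist1h4k had -0.27, -0.30 and -0.35, and Hist1h1a had -0.31. Hist1h1c, the H1 gene with the most counts, had 0.10 ± 0.08, at 384 and 319 CPM in WT and 412 and 347 in DDX5ΔIEC, where the genotypes overlapped.

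Hist1h4i was the 1 member past the criterion in the other direction. This H4 gene at chr13:22040636-22041362 stood at 10.6 and 13.5 CPM in WT colon and at 16.7 and 18.4 in DDX5ΔIEC colon, where both libraries were above both WT libraries. The log2 ratio was 0.54 ± 0.14, with an adjusted p of 0.313 in edgeR. Relative to H4 counts in the same library, which needs no scaling, Hist1h4i gave 1.23% (95% Wilson interval 1.07 to 1.41) and 1.38% (1.23 to 1.54) in WT. It gave 2.37% (2.12 to 2.64) and 2.02% (1.84 to 2.23) in DDX5ΔIEC. The intervals, which cover counting error only, did not overlap between the genotypes. Every other H4 gene had a log2 ratio of -0.04 or less.

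**Figure D2:**
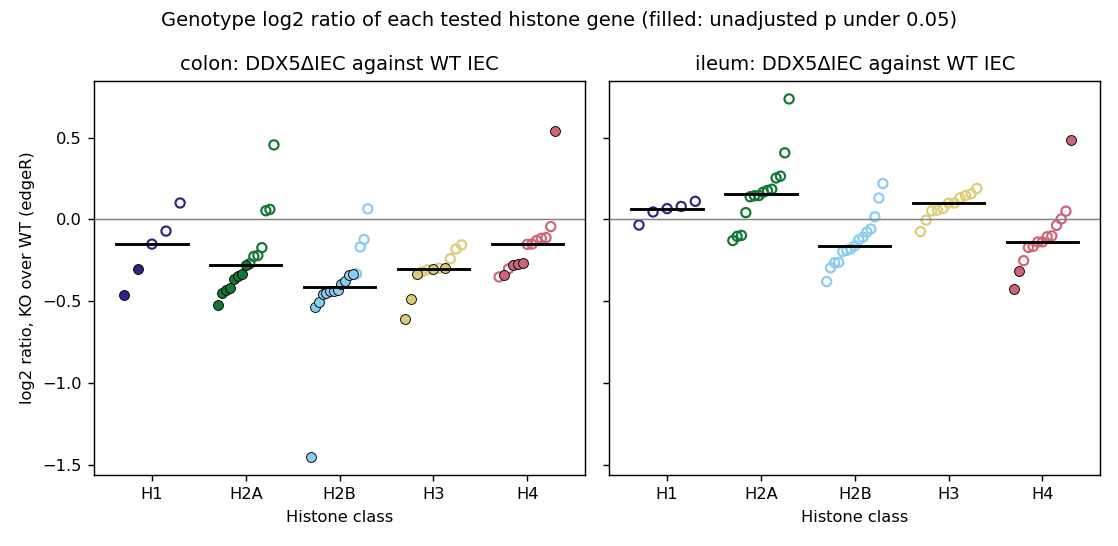
Log2 ratio of DDX5ΔIEC over WT IEC for each tested histone gene by class, in the colon (60 genes) and the ileum (58 genes). Each point is 1 gene, filled where the unadjusted p is under 0.05, and the black bar is the class median. In the colon 54 of 60 genes lie below 0, in the ileum 28 of 58.

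The 12 tested members with at most 20% shared words had a median of -0.28, and 11 of the 12 were below 0. By 3′ end, the 21 tested members that end at the stem-loop had a median of -0.34, and the 21 that run past it a median of -0.28. Summed over the 22 genes that end at the stem-loop, the level was 824.1 and 995.5 CPM in WT colon and 623.7 and 825.7 in DDX5ΔIEC colon. Summed over the 4 genes with a long 3′ end and no stem-loop letters, it was 139.6 and 153.6 in WT and 151.8 and 153.3 in DDX5ΔIEC. Nearly all of the latter sum was Hist1h2bc, an H2B gene at 129 and 144 CPM in WT and 145 and 143 in DDX5ΔIEC, with a log2 ratio of 0.06 ± 0.09. The other 2 tested genes of that kind, Hist1h2bq and Hist2h2be, had log2 ratios of -1.45 and -0.12. Summed over the 16 genes with a short 3′ end, the level was 534.6 and 646.1 CPM in WT colon and 386.9 and 545.8 in DDX5ΔIEC colon, and the median of the 15 tested was -0.32. The 2 blocks of the chromosome 13 cluster had medians of -0.31 and -0.30. Hist3h2a, an H2A gene on chromosome 11, stood at 4.41 and 4.14 CPM in WT and 7.34 and 4.74 in DDX5ΔIEC.

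The colon result leaned on the library labelled DDX5ΔIEC colon replicate 1. Without it, and without a block, the median of the members was -0.10. Without DDX5ΔIEC colon replicate 2 the median was -0.52, without WT colon replicate 1 it was -0.40 and without WT colon replicate 2 it was -0.19. A lone library is taken to vary like the other group in these fits, so only their medians are given. Within the pair numbered 1 the median was -0.40 and within the pair numbered 2 it was -0.22.

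**Figure D3:**
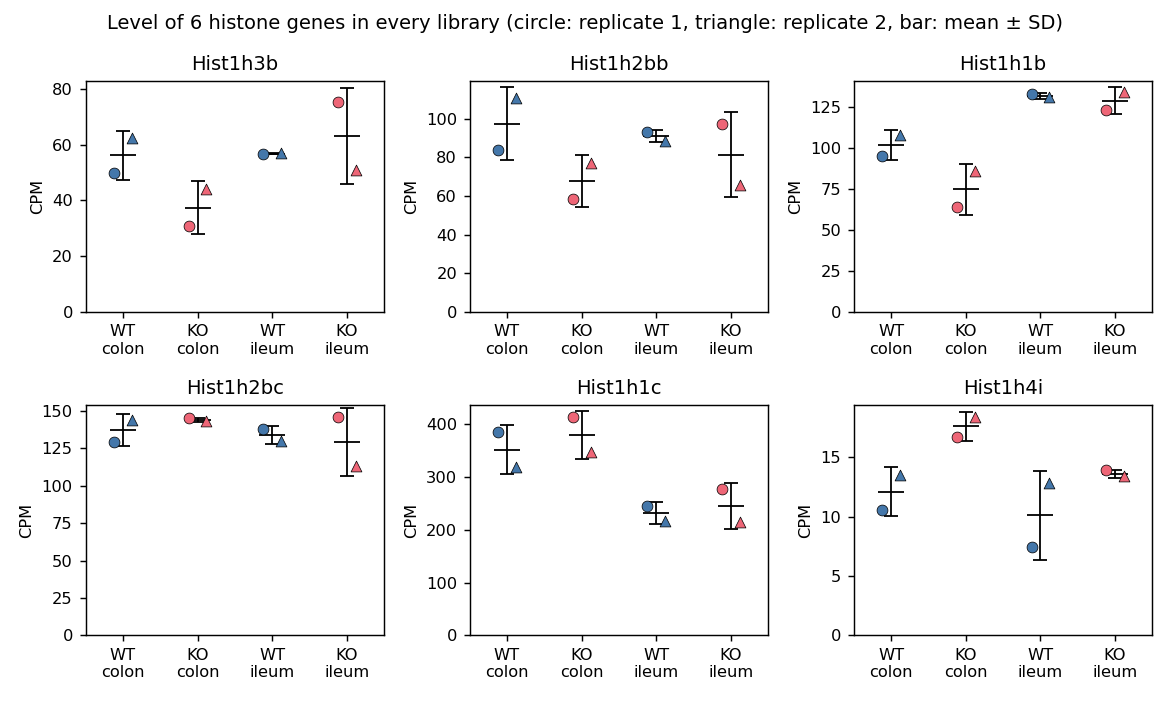
CPM of Hist1h3b, Hist1h2bb, Hist1h1b, Hist1h2bc, Hist1h1c and Hist1h4i in every library, with replicate 1 as circles, replicate 2 as triangles and the group mean ± SD (n = 2) as bars. In the colon, both DDX5ΔIEC points lie below both WT points for Hist1h3b, Hist1h2bb and Hist1h1b and above them for Hist1h4i, and Hist1h1c is higher in the colon than in the ileum.

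Genes that act with the histone genes were read from lists. In the colon, the 28 S-phase and replication genes had a median log2 ratio of 0.03, 13 below 0 and 15 above, and none at an unadjusted p under 0.05. Ccne1 and Ccne2, cyclins of S-phase entry, stood at 3.24 to 7.48 and 6.99 to 11.3 CPM in the colon, and E2f1, a transcription factor of S-phase genes, at 2.1 to 3.51. Rrm2, a subunit of ribonucleotide reductase, stood at 14.3 and 21.7 in WT and 12.1 and 20.4 in DDX5ΔIEC. None of these 4 had an unadjusted p under 0.05. Pcna, the replication clamp, stood at 64.7 and 77.3 CPM in WT and 68.7 and 73.4 in DDX5ΔIEC. Mcm2, a subunit of the replicative helicase, stood at 28.2 and 35.1 in WT and 32.8 and 37.8 in DDX5ΔIEC. The 18 genes of G2 and mitosis had a median of -0.26, all 18 were below 0, and 6 were at an unadjusted p under 0.05. Their sum was 1038 and 1067 CPM in WT and 723.9 and 1054 in DDX5ΔIEC, so that DDX5ΔIEC colon replicate 1 was below both WT libraries and replicate 2 lay between them. Top2a, a topoisomerase of dividing cells, stood at 198 and 204 in WT and 119 and 189 in DDX5ΔIEC, and Mki67, a marker of cycling cells, at 251 and 276 and at 188 and 273. The part of the number of cycling cells in the histone result was not tested.

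The 20 genes of histone mRNA making and decay had a median of 0.04 in the colon, and 2 were lower at an unadjusted p under 0.05. These 2 were Hinfp, a factor for H4 gene transcription (log2 ratio -0.32 ± 0.10), and Pou2f1, which binds the octamer (-0.49 ± 0.18). Slbp stood at 41.6 and 46 CPM in WT and 45.3 and 46.9 in DDX5ΔIEC. Npat, the coactivator of histone gene transcription, stood at 29.8 and 31 in WT and 26.8 and 32 in DDX5ΔIEC. Casp8ap2 was at 31.2 to 37.9 CPM, and Lsm10 and Lsm11, proteins of the U7 particle that cuts the mRNA 3′ end, were at 4.19 to 5.33 and 11.6 to 15.2. Zfp473 was at 0.938 to 1.84 CPM. None of these 6 had an unadjusted p under 0.05 in the colon. The 17 histone chaperones had a median of -0.09, and none had an unadjusted p under 0.05.

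Of 11 histone variants made outside S phase, 7 were below 0 in the colon, with a median of -0.12. At an unadjusted p under 0.05, 3 were lower and 0 higher. These were H2afx, whose product marks DNA breaks (-0.29 ± 0.10), Cenpa, the centromeric H3 (-0.50 ± 0.15), and H1fx, at under 1 CPM in all colon libraries. H3f3a stood at 169 and 161 CPM in WT and 176 and 172 in DDX5ΔIEC, and H3f3b, which encodes the same H3.3 protein, at 637 and 558 and at 633 and 532. H2afz stood at 95.8 to 109 CPM over both genotypes. Rn7sk, an abundant RNA without a poly(A) tail, stood at 9750 and 9260 CPM in WT colon and at 13300 and 8280 in DDX5ΔIEC colon, and at 5290 and 5200 in WT ileum and 7830 and 4460 in DDX5ΔIEC ileum.

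In the ileum, the histone genes did not move together with genotype. Of 58 members tested, 28 were below 0 and 30 above, with a median log2 ratio of 0.01 against -0.0046 over 14068 genes. With edgeR's quasi-likelihood test, 0 members had an adjusted p under 0.05 (0.697% of all genes) and 0 were past the criterion, against 2.83% lower and 3.78% higher over protein-coding genes. At an unadjusted p under 0.05, 2 were lower and 1 higher, against 6.26% and 6.08%, and DESeq2 with the block gave 0 at either threshold. Both DDX5ΔIEC libraries lay below both WT libraries for 4 members (6.9%), against 20.5% of all genes, and above them for 4 (6.9%), against 19%.

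The 3 ileal members at an unadjusted p under 0.05 were all H4 genes. Hist4h4, on chromosome 6, stood at 41.9 and 40.6 CPM in WT ileum and at 34.7 and 26.9 in DDX5ΔIEC ileum, with a log2 ratio of -0.43 ± 0.15 and an adjusted p of 0.28 in edgeR. Without DDX5ΔIEC ileum replicate 2 and a block its log2 ratio was -0.24. Hist1h4k had a log2 ratio of -0.31 ± 0.14, and of -0.21 in that fit. Hist1h4i stood at 7.48 and 12.8 in WT and 13.9 and 13.4 in DDX5ΔIEC, with a log2 ratio of 0.48 ± 0.21 and an adjusted p of 0.394, and so was on the higher side in both tissues. As a share of H4 counts it was 0.658% and 1.27% in WT and 1.34% and 1.47% in DDX5ΔIEC, and the intervals of WT replicate 2 (1.1 to 1.46) and the DDX5ΔIEC libraries (1.14 to 1.57 and 1.24 to 1.75) overlapped. Without WT ileum replicate 1 and a block its log2 ratio was 0.09. By class, H2A and H3 had medians of 0.16 and 0.10 and H2B and H4 medians of -0.16 and -0.14.

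In the ileum, the sums of H2A, H2B and H3 genes were higher in one DDX5ΔIEC library and lower in the other than in both WT libraries. H2A genes summed to 322.1 and 322.3 CPM in WT and to 434 and 278.3 in DDX5ΔIEC. H2B genes summed to 726 and 676.7 in WT and 770 and 529.3 in DDX5ΔIEC, and H3 genes to 604.7 and 564 in WT and 729.8 and 537 in DDX5ΔIEC. H4 genes summed to 1137 and 1008 in WT and 1036 and 910.5 in DDX5ΔIEC, and H1 genes to 962.8 and 889.8 and to 1025 and 902.1, and in both classes the genotypes overlapped. Without DDX5ΔIEC ileum replicate 2, the library rich in repeat-like counts, and without a block, the member median was 0.19. Without DDX5ΔIEC ileum replicate 1 and a block the member median was -0.21. Leaving the repeat-like genes out before scaling called 0 members.

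Whether the genotype difference is unlike in the 2 tissues was tested as an interaction over all 8 libraries. With edgeR, 0 of 61 members had an adjusted p under 0.05, against 0.00618% of all genes, and DESeq2 gave 0 as well. The members' median interaction was 0.26, the ileal log2 ratio being the higher, with 50 of 61 above 0, against -0.012 over 16178 genes. At an unadjusted p under 0.05, 0 members were lower and 1 higher, against 2.77% and 3.6% of all genes. This was Hist1h1b, with an interaction of 0.42 ± 0.16 and an adjusted p of 0.755. The ileal levels of Hist1h1b were 133 and 131 CPM in WT and 123 and 134 in DDX5ΔIEC. Without DDX5ΔIEC colon replicate 2, 15 members (24.2%, against 1.92% of all genes) had an adjusted p under 0.05, and without DDX5ΔIEC ileum replicate 2, 11 had (18%, against 1.51%). Without DDX5ΔIEC colon replicate 1 the median was -0.14 and 0 had, so the sign of the median turned without 1 knockout mouse.

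The tissues themselves were compared within each mouse. On the TMM scale, most histone genes were somewhat higher in the ileum than in the colon, and Hist1h1c went the other way. Of 61 members, 52 had a positive log2 ratio of ileum over colon, with a median of 0.32 against -0.03 over 16178 genes. With edgeR's quasi-likelihood test 12 were higher at an adjusted p under 0.05 (19.7%, against 25.6% of all genes) and 4 lower (6.56%, against 26%). Both shares were at or below those of all genes. In all 4 mice, 24 members (39.3%) were higher in the ileum, against 30.4% of all genes, and 4 (6.56%) lower, against 32.8%. Within WT alone 2 members were higher (19.5% of all genes) and 2 lower (18.3%), and within DDX5ΔIEC alone 14 were higher (19.4%) and 1 lower (18.3%). The median log2 ratio was 0.14 within WT and 0.48 within DDX5ΔIEC. The summed level of ileum over colon was 1.19 and 0.992 in the WT mice and 1.52 and 1.01 in the DDX5ΔIEC mice, so in the mice numbered 2 it was close to level. As a share of all counts, the members in the mice numbered 2 went from 0.389% in colon to 0.335% in ileum in WT. In DDX5ΔIEC they went from 0.353% to 0.255%. In the mice numbered 1 they went from 0.345% to 0.354% in WT and from 0.282% to 0.362% in DDX5ΔIEC. The totals behind these shares include repeat-like genes, which took 19.5% of counts in DDX5ΔIEC ileum replicate 2 and 3.93% in WT ileum replicate 2. How the tissues compare in the sum thus depends on the scaling.

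The 12 members that rose in the ileum were 3 H1 genes, 3 H2A, 4 H3 and 2 H4 genes, with no H2B gene. Hist1h3g, an H3 gene, had the largest ratio. It stood at 17.4 and 20.5 CPM in WT colon, 13.4 and 17.9 in DDX5ΔIEC colon, 30 and 28.4 in WT ileum and 37.1 and 24.3 in DDX5ΔIEC ileum. All 4 ileum libraries were above all 4 colon libraries, and the log2 ratio was 0.80 ± 0.16 (adjusted p = 0.00598, edgeR). Hist1h2ae, an H2A gene, followed with 0.64 ± 0.18 (adjusted p = 0.0212). Hist1h4a, an H4 gene, stood at 32.7, 36.7, 26.5 and 38.9 CPM in the colon and at 48.6 to 55.1 in the ileum, with 0.62 ± 0.12 (adjusted p = 0.00509). The H2A genes Hist1h2af and Hist1h2ak had 0.62 ± 0.14 (adjusted p = 0.00978) and 0.60 ± 0.17 (adjusted p = 0.0229).

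The 4 members that fell in the ileum were 3 with annotated 3′ ends that run past the stem-loop and 1 without its letters, while 7 of the 12 that rose run past it as well. Hist1h1c, the H1 gene known for expression outside S phase as well, stood at 384 and 319 CPM in WT colon and 412 and 347 in DDX5ΔIEC colon. In the ileum it stood at 245 and 217 in WT and 276 and 214 in DDX5ΔIEC, below every colon library. Its log2 ratio was -0.62 ± 0.08 (adjusted p = 0.000605, edgeR). Hist2h2be, an H2B gene on chromosome 3 whose annotated mRNA is 2620 bases long, stood at 6.68 to 9.89 CPM in the colon and 4.01 to 7.17 in the ileum. Its log2 ratio was -0.73 ± 0.15 (adjusted p = 0.00702). Hist3h2a had -0.60 ± 0.18 (adjusted p = 0.0255) and Hist1h4i -0.33 ± 0.11 (adjusted p = 0.0441).

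**Figure D4:**
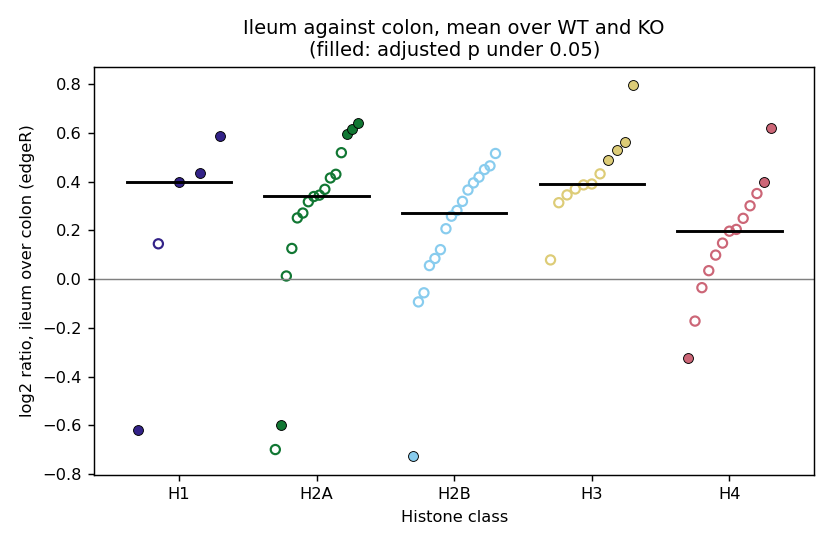
Log2 ratio of ileum over colon for each of the 61 tested histone genes by class, as the mean over WT and DDX5ΔIEC mice. Filled points have an adjusted p under 0.05 and the black bar is the class median. 52 genes lie above 0, and the filled points below 0 are Hist1h1c, Hist3h2a, Hist2h2be and Hist1h4i.

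The shares of Hist1h1c and Hist1h1e among H1 counts, which need no scaling between libraries, set the tissues apart. Hist1h1c gave 40% and 34.7% of H1 counts in WT colon and 45.7% and 38.8% in DDX5ΔIEC colon, against 23.7% to 26.9% in the 4 ileum libraries. Hist1h1e, another H1 gene, gave 21.5% to 23.3% in the colon and 27.3% to 30.4% in the ileum. Hist1h1b gave 7.07% to 11.8% in the colon and 12% to 14.9% in the ileum. The ranges of Hist1h1c and Hist1h1e did not overlap between tissues. Those of Hist1h1b nearly met, and the 95% Wilson intervals of its nearest libraries (11.3 to 12.2 in WT colon replicate 2 and 11.4 to 12.6 in DDX5ΔIEC ileum replicate 1) overlapped. Hist1h1a gave 6.65% to 10.7% in the colon and 10.5% to 11.8% in the ileum. Hist1h1d gave 18.7% to 19.9% in the colon and 19.8% to 22% in the ileum. The ranges of both of the latter overlapped. In the fit, Hist1h1b and Hist1h1e rose in the ileum by log2 ratios of 0.59 ± 0.08 and 0.40 ± 0.09 (adjusted p = 0.001 and 0.00818, edgeR), and Hist1h1a by 0.43 ± 0.11.

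**Figure D5:**
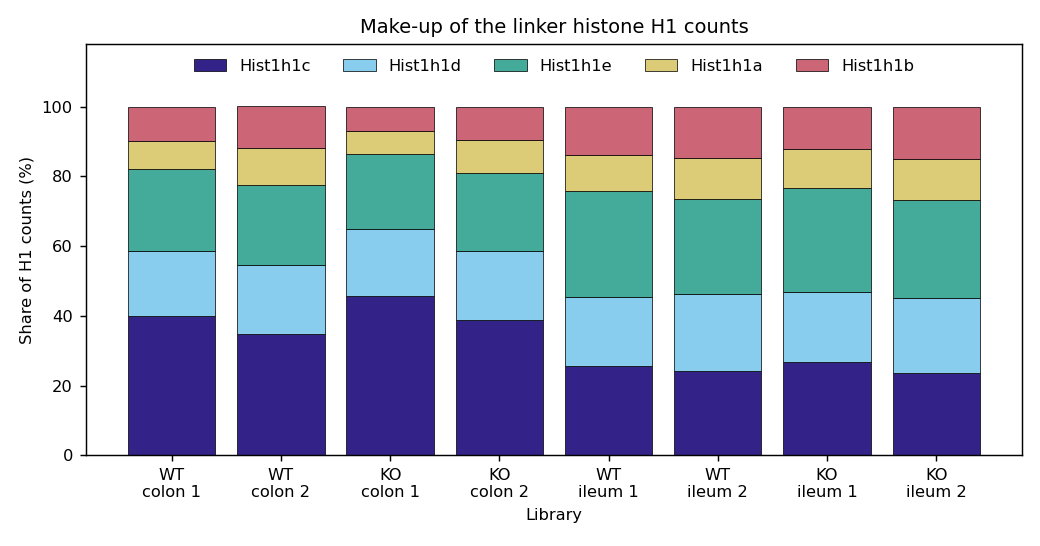
Share of linker histone H1 counts taken by Hist1h1a to Hist1h1e in each library, in percent of all H1 counts. Hist1h1c takes 34.7% to 45.7% in the 4 colon libraries and 23.7% to 26.9% in the 4 ileum libraries.

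The tissue calls also depended on single mice. With the mouse as a block, leaving out 1 library also takes its partner from the same mouse out of the contrast. Leaving out the colon or the ileum library of a mouse is therefore nearly the same fit. Here and in the interaction, such a fit leaves 1 mouse of that genotype, which is taken to vary like the other genotype. Without DDX5ΔIEC colon replicate 2 or DDX5ΔIEC ileum replicate 2, 44 members were higher in the ileum at an adjusted p under 0.05 (71% and 72.1%, against 25.4% and 25.3% of all genes in the same fits). Without WT colon replicate 1 or WT ileum replicate 1, 3 were (4.84% in each fit, against 17% and 16.7%). Hist1h1c, Hist1h3g and Hist1h4a kept their direction and an adjusted p under 0.05 in every alternative fit run, with adjusted p of at most 0.0161, 0.0454 and 0.047. Hist2h2be, Hist1h2af and Hist1h2ak lost the call without WT colon replicate 1 or WT ileum replicate 1 (adjusted p = 0.0551 to 0.133), and Hist1h2ae without any single WT library. Hist1h4i had an adjusted p of 0.225 and Hist3h2a of 0.148 in DESeq2, and both lost the call in most of the edgeR fits that left out a library. Other genes of dividing cells were higher in the ileum too. Of 18 genes of G2 and mitosis, 14 rose and none fell at an adjusted p under 0.05, with a median of 0.30. Of 28 S-phase genes, 10 rose and 2 fell, with a median of 0.25. The 4 crypt stem cell markers summed to 36.35 to 39.61 CPM in the colon and 638.4 to 860 in the ileum, and their part in the histone difference was not tested. Most of the ileal sum was Olfm4, at 0.484 to 1.27 CPM in the colon and 576 to 788 in the ileum. Lgr5 and Smoc2 rose by log2 ratios of 1.34 and 0.78 (adjusted p = 0.000144 and 0.000356, edgeR), and Ascl2 had 0.14 (adjusted p = 0.509).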

How the data were processed

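Total RNA of intestinal epithelial cells was ribosome-depleted and sequenced as stranded libraries. Per the labels and the methods, the authors aligned reads to mm10 with STAR 2.6.1a and counted uniquely mapped reads over exons with featureCounts, and the deposited values used here are raw counts per gene. The strand setting of the counting is not given in the sources used here. The deposited tables also hold normalized counts and the authors' own comparisons (DESeq2 1.18.1 fold changes and p-values), which were not tested or reported.

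Counts were tested with edgeR 4.0.16 in R 4.3.3 (quasi-likelihood test, TMM scaling, filterByExpr with a minimum count of 10, Benjamini-Hochberg adjustment over all genes tested). Within a tissue the replicate number was a block beside genotype. The tissue contrast and the interaction used all 8 libraries with the mouse as a block. The mouse of each library was found by matching the fixed ratio of the study's normalized values to the counts, in 33 to 35 genes per library. Deviations from group means correlated at 0.144 in WT and 0.133 in DDX5ΔIEC between tissues of a mouse. The study describes pairs of cohoused littermates, and its own model held a covariate for harvest. In the labels, WT and DDX5ΔIEC mice shared only a number, and nothing says which formed a pair or were harvested together. With the block, p-values within a tissue measure how far the genotype difference varied between the 2 numbered pairs. Those of the tissue contrast and the interaction measure how far the difference between ileum and colon varied among mice of a genotype. Both rest on 2 mice a group.

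The members and lists were chosen with earlier results of these data known. Genes named are the 3 with the highest CPM per kilobase in each class, those past the criterion, the 5 most changed each way between tissues at an adjusted p under 0.05, and fixed genes of the lists; others named (Hist1h1b in the interaction, Hist1h2bc, Hist4h4, Hist1h1e, Hist1h1d, Hinfp, Pou2f1, Cenpa, H1fx, Rn7sk) were chosen after their values were seen. Alternatives were RLE scaling, no filter, DESeq2 1.42.0, the fit without the block, all libraries in 1 fit, repeat-like genes left out and each library left out. The scripts were tested on simulated data. Sequences were read with Python 3.11.15.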

Additional observations from a re-analysis of the deposited data

Results flagged for a closer look

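Hist1h2al, annotated as a processed pseudogene and so no member, had counts in both tissues, at a mean of 0.759 CPM in DDX5ΔIEC ileum. It had 11 and 6 counts in WT ileum and 11 and 6 in DDX5ΔIEC ileum. It was singled out because, after scaling, both DDX5ΔIEC ileum libraries lay above both WT ileum libraries, so the choice itself used the genotype difference. Hist3h2bb-ps, also a processed pseudogene, had 22 to 46 counts and was not singled out. The source of the Hist1h2al reads was not tested.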

How the results depend on the processing

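With 2 mice a group, calls moved with single libraries. In the colon, members past the criterion on the lower side (5) were 2 in DESeq2 with the block (0 higher), 3 in DESeq2 without it and 2 with all 8 libraries in 1 fit. These were 3.33%, 5% and 3.28% of members, against 2.35%, 2.95% and 3.61% of protein-coding genes in the same fits. With all 8 libraries in 1 fit, the members' share on the lower side was thus not above that of protein-coding genes. Leaving out 1 library gave 0 to 30 lower (12 without WT colon replicate 1), 0 to 1 higher, 0 to 42 at an adjusted p under 0.05 and a median of -0.52 to -0.10. The highest counts came without DDX5ΔIEC colon replicate 2, which leaves DDX5ΔIEC colon replicate 1, the library with the lowest histone sum, alone. A lone library within a tissue is taken to vary like the other group, so such counts decide nothing about the members. Over all genes the median was -0.00397 in that fit and -0.00312 without DDX5ΔIEC colon replicate 1, where the members stood at -0.52 and -0.10. With every library kept and without the replicate block, the colon had 4 lower (6.67%, against 3.9% of protein-coding genes) and 1 higher. The median was -0.29 there and 0.01 in the ileum. Same-numbered WT and DDX5ΔIEC libraries deviated together with a correlation of 0.000756 in the colon and 0.114 in the ileum. Nothing in the labels ties them. In the ileum, leaving out 1 library gave 0 to 9 lower and 0 to 5 higher, with medians of -0.21 to 0.19. Between tissues, 27 members were higher without the filter on low counts (42.2%, against 9.95% of all 40178 genes). Only 16178 of those genes pass the filter, and with it the shares were 19.7% of members and 25.6% of all genes. In DESeq2 with the block 2 were lower (3.28%, against 18.5% of all genes). Leaving out 1 library gave 1 to 6 lower, 3 to 44 higher and a median of 0.0849 to 0.572. Without the mouse block 3 were lower (4.92%, against 24.9% of all genes) and 15 higher (24.6%, against 24.2%). Within WT, 1 was then higher (1.64%, against 17.4%). In the interaction, leaving out 1 library gave 0 to 15 calls and a median of -0.15 to 0.73. The summed level of ileum over colon in WT (1.09) was 0.945 when scaled to total counts, and that of DDX5ΔIEC over WT colon (0.866) was 0.916 over the members with at most 20% shared words. In fits added after the data were seen, the colon log2 ratio turned for Hist1h1c (-0.02899 without WT colon replicate 2, -0.03053 without DDX5ΔIEC colon replicate 1), and without the latter for Hist1h2ak (0.01597) and Hist1h4k (0.0003539). The cause of these moves was not tested. Of 498 values for single genes, 439 kept direction and, where the fit gave a p-value, side of the threshold. Another 32 lost a call, 23 gained one and 4 turned. Fits within a tissue that left out 1 library but kept the block gave no p-value and were counted by direction alone. Fits that left out the colon or the ileum library of a mouse were counted apart, though nearly the same with the mouse as a block.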
